A study of Sus scrofa with 102 samples.

Results

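Expression of 4 genes of muscle fat burning was described in *Longissimus dorsi*, the loin muscle, of 102 Iberian by Landrace backcross pigs. The 4 genes were *PPARGC1A*, *PPARD*, *PDK4* and *CPT1B*, and they were taken from the 2201 genes named by a probe among the deposited values. Each gene had 1 named probe there, so no choice between probes was needed, and no second probe could serve as a check. The pigs were 55 females and 47 males, sired by crossbred boars on Landrace sows and fed ad libitum, with no treatment and no control line. They were slaughtered in 3 batches, at ages of 171 to 184 days and carcass weights of 43.6 to 97.8 kg. There were 8 females among the 14 pigs of batch 1, 36 among the 70 of batch 2 and 11 among the 18 of batch 3. Each pig gave 1 array and is 1 sample of its batch and sex. The pigs are related, and the pedigree was not used, so the spread between them was treated as that of independent animals. The deposited values are log2 intensities, and an increase of 1 stands for a doubling of the signal. Signals of different probes are not compared, because each probe has its own brightness.

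*PPARGC1A* encodes PGC-1 alpha, a coactivator without DNA binding of its own that is recruited by nuclear receptors and other transcription factors. In muscle it is induced by exercise, cold and fasting, and it promotes mitochondrial biogenesis and oxidative metabolism. *PPARD* encodes PPAR delta, a nuclear receptor for fatty acids and one of the factors that PGC-1 alpha coactivates. *PDK4*, a target of PPAR delta, encodes a kinase that shuts the pyruvate dehydrogenase complex and so spares glucose when fat is burnt. *CPT1B*, another known target, encodes the muscle form of carnitine palmitoyltransferase 1, the gate through which long-chain fatty acids enter mitochondria. Known upstream signals of these genes include AMP-activated kinase, cyclic AMP and glucocorticoids.

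The tissue was checked by markers of muscle fibres. Of the 16 genes listed for skeletal muscle, 6 had a probe, namely *DES*, *ACTN2*, *TCAP*, *RYR1*, *MYF6* and *MYOD1*. Here and below, to have a probe means to have a named one among the deposited values. These hold only probes that passed the authors' filter on variation, and 2761 of the 5449 tested have no symbol. A gene without a probe here may thus still be on the array. The mean signal of the 6 ranged from 10.07 to 12.48 over the pigs, while *MYOD1* alone had a mean of 5.46. The array with the lowest median correlation with the others, that of batch 3 replicate 15 (a male), had a median r of 0.746, and the next lowest had 0.820. On 4 arrays, 1 or more of the 8 probes that separate the sexes best lay on the side of the other sex. These 8 probes were picked from the same values, whatever their chromosome. Results are given with all 102 arrays, and values without these arrays are given where they bear on a result. Nearly all deposited probes vary, as 98.0% had over 20% of their values more than 1.5-fold from the median. The shares of probes called that stand beside the results therefore refer to probes that had mostly been selected for variation.

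The 4 genes varied between pigs to different degrees. *PPARGC1A* ranged from 8.52 to 14.56 with a median of 10.13, a span of 65.6-fold in signal. Its SD was larger than that of about 99.0% of the probes tested. For *PPARD*, *PDK4* and *CPT1B* this share was 46.7%, 72.1% and 75.1%. *PPARD* ranged from 3.70 to 6.99 (median 4.66), with a low mean signal of 4.78. *PDK4* ranged from 10.99 to 14.52 (median 13.16). *CPT1B* ranged from 6.80 to 10.34 (median 8.62). The highest pigs were in part the same animals. Of the 10 pigs with the highest *PPARGC1A*, 5 were also among the 10 highest for *PPARD* and 4 among the 10 highest for *PDK4*, but 1 was among those for *CPT1B*. *PPARD* and *PDK4* shared 6 such pigs. One male of batch 2 (replicate 28) ranked 1 for *PPARGC1A*, 2 for *PPARD*, 4 for *PDK4* and 2 for *CPT1B*. Males made up 9 of the 10 highest pigs for *PPARGC1A*, *PDK4* and *CPT1B* and 10 of 10 for *PPARD*. Batch 2 supplied 8 of the 10 for *PPARGC1A* and 10 of 10 for *PPARD*, *PDK4* and *CPT1B*. The ranks are of values before sex and batch were fitted. Shared pigs therefore do not by themselves show a relation within sex and batch.

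**Figure D1:**
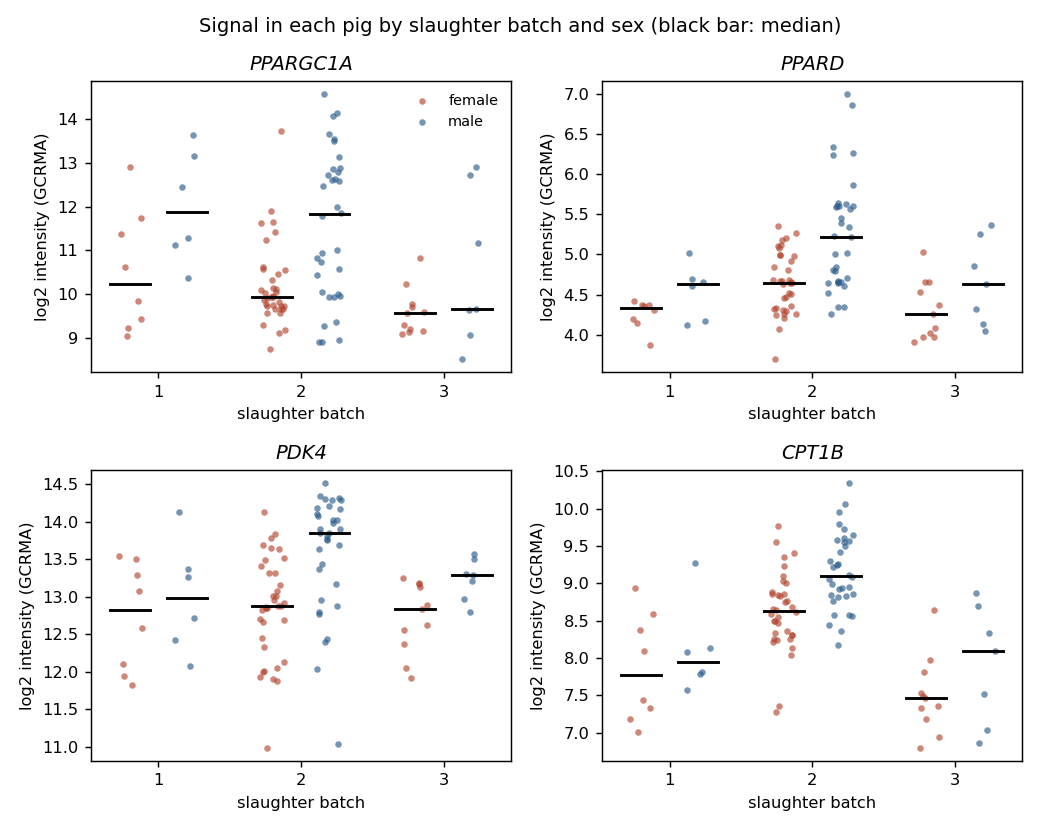
Signal of each pig (log2 intensity, vertical axis) by slaughter batch (horizontal axis) and sex, with 1 panel per gene and the median of each group as a black bar. The median of males lies above that of females in all 3 batches for each gene, and the pigs of both sexes overlap.

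All 4 genes were lower in females than in males. For *PPARGC1A*, females ranged from 8.75 to 13.73 (median 9.85) and males from 8.52 to 14.56 (median 11.29). The sexes overlapped, but only 8 of 55 females lay above the male median. With batch and carcass weight in the model, the difference, females minus males, was -1.43 ± 0.26 (log2, SE), a 2.70-fold lower signal (limma, adjusted p = 1.81e-05). For *PPARD*, females ranged from 3.70 to 5.36 (median 4.47) and males from 4.05 to 6.99 (median 4.86), and 16 males lay above the highest female. The difference was -0.55 ± 0.10 (SE, limma, adjusted p = 4.74e-05). For *PDK4*, females ranged from 10.99 to 14.13 (median 12.88) and males from 11.04 to 14.52 (median 13.63). The difference was -0.64 ± 0.14 (SE, limma, adjusted p = 0.000347), and 6 females were above the male median. For *CPT1B*, females ranged from 6.80 to 9.77 (median 8.37) and males from 6.86 to 10.34 (median 8.92), a difference of -0.44 ± 0.11 (SE, limma, adjusted p = 0.00215). Among all 5449 probes tested, 14.4% were called lower in females, and the median difference of all probes was -0.03. The 4 calls stand against that share, and no test was made of the group of 4 as such. Without the 4 arrays with a sex-separating probe against the label, the differences were -1.59, -0.60, -0.68 and -0.43 in the same order. Those arrays were picked by the sex contrast of these data, so this is no independent check.

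Markers of other cell types also differed between the sexes. Of 6 endothelial genes, 3 were lower in females (14.4% of all probes were), namely *PECAM1* (-0.29), *ESAM* (-0.33) and *TEK* (-0.21). The mean of the 6 ranged from 6.00 to 7.52 in females and from 5.99 to 8.54 in males. Of the 6 general muscle markers and the 9 measured genes of slow fibres, 0 were called by sex. Higher in females were 2 of 7 fibroblast genes (*DCN* and *FBN1*, 0.27 and 0.29) and 2 of 6 adipocyte genes (*ADIPOQ* and *SCD*, 0.65 and 0.77), where 11.7% of all probes were higher. The probes of *ADIPOQ* and *SCD* had low mean signals of 2.95 and 4.96, and *FABP4*, *LPL*, *CFD* and *LIPE* were not called by sex. The fibroblast mean ranged from 6.99 to 9.32 in females and from 6.76 to 9.23 in males, and the adipocyte mean from 6.12 to 8.88 and from 6.48 to 8.59. The part of these cell types in the sex differences of the 4 genes was not tested.

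The difference between the sexes had the same sign in each slaughter batch. For *PPARGC1A* it was -1.30 in batch 1, -1.51 in batch 2 and -1.15 in batch 3. In batch 2 alone, with 70 pigs, each gene kept its call (limma, adjusted p between 0.00013 and 0.00227), where 17.4% of all probes were called lower in females. In batches 1 and 3, with 14 and 18 pigs, none of the 4 genes was called, with the lowest adjusted p at 0.775. Only 0.128% and 0.147% of all probes were called lower in females in these batches. A test of whether the sexes differ by batch gave no call among the 5449 probes (limma, F of the interaction, 0%). At an unadjusted p under 0.05 it gave 425 probes, and none of the 4 genes was among them (lowest p = 0.329, for *PPARD*).

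The spread of the coactivator and the receptor was wider in males. After sex, batch and weight had been fitted, the SD of *PPARGC1A* was 0.95 in females and 1.57 in males. For *PPARD* it was 0.37 in females and 0.63 in males. *PDK4* (0.65 and 0.72) and *CPT1B* (0.54 and 0.55) had more even spreads. These SDs are a description, and their difference was not tested. The part of the low signal of the *PPARD* probe in its spread, its sex difference and its relations was not tested either.

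Slaughter batch was called for *CPT1B*, *PPARD* and *PPARGC1A*, and not for *PDK4*. Batch was called for 86.6% of all probes (limma, F over 3 batches), so a call by itself sets no gene apart. *CPT1B* had the largest F of the 4, with medians of 7.95 in batch 1, 8.85 in batch 2 and 7.501 in batch 3. Ranges were 7.01 to 9.27, 7.28 to 10.34 and 6.80 to 8.87, so that the batches overlapped. Against batch 2, *CPT1B* differed by -0.81 ± 0.17 in batch 1 and by -1.09 ± 0.15 in batch 3 (SE, limma, adjusted p = 9.84e-06 and 5.31e-10). *PPARD* followed with medians of 4.36, 4.80 and 4.35, and with differences of -0.58 ± 0.15 and -0.50 ± 0.14 from batch 2 (SE, adjusted p = 0.000488 and 0.00096). Its ranges also overlapped, with 3.88 to 5.02, 3.70 to 6.99 and 3.91 to 5.37. *PPARGC1A* had medians of 11.20, 10.23 and 9.61, with ranges of 9.05 to 13.62, 8.75 to 14.56 and 8.52 to 12.91. It was lower in batch 3 than in batch 2, with a difference of -1.03 ± 0.35 (SE, adjusted p = 0.00563). Its difference of 0.15 between batches 1 and 2 had a 95% interval of -0.61 to 0.90. *PDK4*, with medians of 12.90, 13.32 and 13.05 and ranges of 11.82 to 14.13, 10.99 to 14.52 and 11.92 to 13.57, was not called by batch (adjusted p = 0.221).

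The background of these batch contrasts was high. Of all probes, 41.5% were lower in batch 1 than in batch 2, 45.3% were lower in batch 3 than in batch 2, and 8.18% were lower in batch 3 than in batch 1. For *PPARGC1A* the last contrast was -1.18 ± 0.45, with an adjusted p of 0.0555. Over 10 alternatives it ranged from -1.31 to -0.54 (limma, adjusted p between 0.00409 and 0.649). The median of all probes moved by -0.11 and -0.17 in batches 1 and 3 against batch 2. As 32.7% and 36.2% of probes were higher in these batches, a signed median does not give the size of a typical shift. Larger falls than those of *CPT1B* occurred, such as -1.53 and -1.61 for *UCP3*, a mitochondrial carrier. The actin 5′ minus middle difference, a sign of RNA integrity on the array, also differed between the batches. It had medians of -1.94, -1.29 and -1.87 in batches 1, 2 and 3 (permutation test over 102 pigs, p = 1e-05, the smallest that 100000 permutations can give). Spike-in controls gave a p of 0.751 in the same permutation test. With this actin measure added to the model, *CPT1B* stayed lower in batches 1 and 3, with differences of -0.73 and -1.01 from batch 2 (limma, adjusted p = 0.000793 and 2.1e-06). Age differed too, with a mean of 175.1 days in batch 1 and of 180.7 and 180.6 days in batches 2 and 3. The mean of 3 measured genes of fast fibres was also lower in batches 1 and 3 (medians of 11.57, 12.96 and 11.16). Ranges of that mean were 9.68 to 13.30, 11.22 to 13.82 and 8.98 to 12.39. The mean of the 6 general muscle markers had the same order (medians of 10.85, 11.50 and 10.42, ranges of 10.43 to 11.63, 10.07 to 12.48 and 10.07 to 11.28). Of 7 fibroblast genes, 5 were higher in batch 1 than in batch 2 (32.7% of all probes were) and 1, *COL1A2*, was lower (-0.61). In batch 3 against batch 2, 3 were higher (36.2% of all probes were) and 1, again *COL1A2*, was lower (-0.70). The mean of the 7 had medians of 8.54, 7.84 and 8.22. Ranges of the fibroblast mean were 7.36 to 9.08, 6.99 to 9.23 and 6.76 to 9.32. The part of the fibre and fibroblast measures in the batch differences was not tested. In whole muscle, fewer cells of a type and less RNA per cell cannot be told apart.

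**Figure D2:**
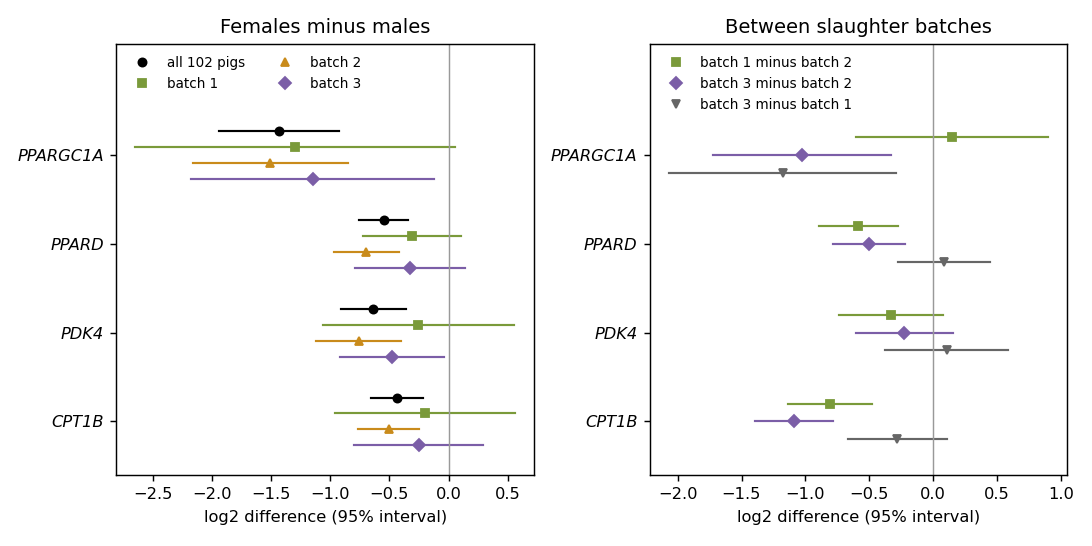
Log2 differences with 95% intervals for each gene. Left, females minus males in all pigs and within each batch, where all values lie below 0; right, the 3 contrasts between slaughter batches, where *CPT1B* and *PPARD* lie below 0 in batches 1 and 3 against batch 2.

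No gene was called for carcass weight. The slope of *PPARGC1A* was -0.30 ± 0.13 per 10 kg (SE, limma, adjusted p = 0.442). Slopes of the other members were -0.06 for *PPARD*, 0.00489 for *PDK4* and 0.11 for *CPT1B* (adjusted p of 0.485 or more). Of all 5449 probes, 0% were called (limma), and 589 had an unadjusted p under 0.05, *PPARGC1A* among them (p = 0.0281).

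The genes were then related to each other pig by pig, on residuals after sex, batch and weight. *PPARGC1A* and *PPARD*, coactivator and receptor, had the highest correlation, with r = 0.628 and rho = 0.587. *PPARGC1A* and *PDK4* had r = 0.524 and rho = 0.486, and *PPARD* and *PDK4* had r = 0.483 and rho = 0.460. *PDK4* and *CPT1B*, the pair of targets, had r = 0.445 and rho = 0.455. Each of these 4 pairs had a permutation p of 1e-05 for r, the smallest that the permutations can give. For rho it was 1e-05 for the first 3 and 2e-05 for the last, and 6 pairs were tested in all. Pairs of a regulator with *CPT1B* were weaker. *PPARD* and *CPT1B* had r = 0.281 and rho = 0.264 (permutation p = 0.00438 and 0.00746). *PPARGC1A* and *CPT1B* had r = 0.250 and rho = 0.219 (permutation p = 0.0113 and 0.0269). When the 2 pigs most distant from the median of the pair's first gene were omitted, r lay between 0.218 and 0.592.

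Set among all other probes, these relations were not the closest that the regulators had. *PPARGC1A* was called in the same direction with 14.3% of probes and in the opposite direction with 11% (limma, adjusted over 5448 probes). *PPARD* was called with 22.1% and 20.6%, *PDK4* with 16.6% and 13.5%, and *CPT1B* with 28.5% and 16.3%. All 6 pairs of members were called in the same direction, with adjusted p between 2.19e-10 and 0.049. By r, *PPARD* ranked 39 among the probes for *PPARGC1A*, *PDK4* ranked 108 and *CPT1B* ranked 773. Each of the 6 pairs lost its call in 1 or more of 15 alternatives. *PPARGC1A* with *CPT1B* lost it in 7 and turned to an r of -0.174 in another.

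*PDK4* was called with each regulator at a fixed level of the other, and *CPT1B* with neither. With both in 1 model, *PDK4* rose by 0.25 ± 0.07 per SD of *PPARGC1A* (SE, limma, adjusted p = 0.0119) and by 0.17 ± 0.07 per SD of *PPARD* (adjusted p = 0.0492). In that model 20% of probes were called for *PPARGC1A* and 40.8% for *PPARD*, and the 2 slopes of *PDK4* did not differ past the threshold (unadjusted p = 0.58). The slope on *PPARGC1A* lost its call in 3 of 13 alternatives, down to 0.00286, and the slope on *PPARD* in 8, down to 0.025. *CPT1B* had slopes of 0.07 ± 0.07 on *PPARGC1A* and 0.11 ± 0.07 on *PPARD* (SE, adjusted p = 0.504 and 0.181).

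**Figure D3:**
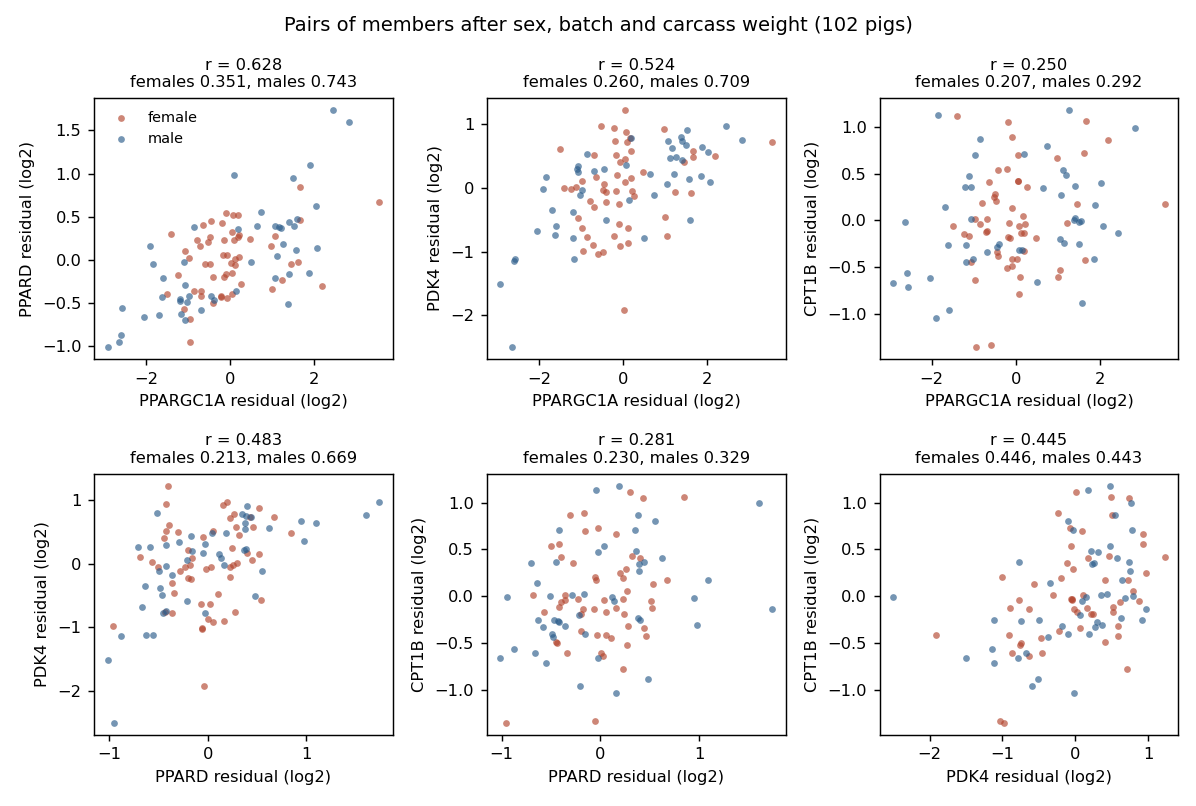
Residuals of each pair of genes after sex, batch and carcass weight (log2, both axes), with 1 point per pig and colour for sex. The males, in blue, spread along a line in the panels of *PPARGC1A*, *PPARD* and *PDK4*, with r of 0.669 to 0.743, and the females have r of 0.213 to 0.351.

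The correlations among *PPARGC1A*, *PPARD* and *PDK4* were higher in males than in females. *PPARGC1A* and *PDK4* had r = 0.709 in 47 males and 0.260 in 55 females (permutation test of the difference, p = 0.00113). *PPARD* and *PDK4* had r = 0.669 in males and 0.213 in females (permutation p = 0.00544). *PPARGC1A* and *PPARD* had r = 0.743 and 0.351 (permutation p = 0.0114). The 3 pairs with *CPT1B* gave no such difference, as *PDK4* and *CPT1B* had r = 0.443 in males and 0.446 in females (permutation p = 0.981). The permutation p-values of the other 2 pairs were 0.67 and 0.623, and none of the 6 is adjusted. This comparison was added after the values in each sex had been seen.

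A model with a slope for each sex over all probes gave a call for both relations fitted on *PDK4*, but not for *PPARGC1A* with *PPARD* in either direction (limma, adjusted p = 0.761 and 0.220). Per SD of *PDK4*, *PPARGC1A* rose by 1.06 ± 0.14 in males and by 0.24 ± 0.14 in females (SE, limma, adjusted p of the difference = 0.0183). *PPARD* rose by 0.40 ± 0.06 in males and by 0.08 ± 0.06 in females (adjusted p of the difference = 0.0298). A difference between the sexes was called for 1.8% of probes in the fit on *PDK4*, 0.661% on *PPARD*, 0.0184% on *PPARGC1A* and 0% on *CPT1B* (limma, 1072 probes with an unadjusted p under 0.05). Turned around, with *PDK4* as the response, the difference was not called, with an adjusted p of 0.909 on *PPARGC1A* and of 0.406 on *PPARD*. This model assumes 1 residual spread for both sexes, while the males had the wider spread of *PPARGC1A* and *PPARD* given above. Without the 4 arrays with a sex-separating probe against the label, the differences in slope were -0.94 for *PPARGC1A* and -0.36 for *PPARD* (adjusted p = 0.0015 and 0.0148). With 2 principal components of all probes as effects, they fell to -0.38 and -0.03 with no call, and after quantile normalization they were -0.75 and -0.34 (adjusted p = 0.0805 and 0.0732).

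Across slaughter batches the pairs kept their sign except where r was near 0. In batch 2, with 70 pigs, r was 0.690 for *PPARGC1A* with *PPARD*, 0.596 for *PPARGC1A* with *PDK4* and 0.510 for *PPARD* with *PDK4*. The permutation p was 1e-05 for each. In batch 3, with 18 pigs, *PPARGC1A* with *PPARD* had r = 0.598 (permutation p = 0.00837), and *PPARGC1A* with *PDK4* had 0.136 (p = 0.59). In batch 1, with 14 pigs, *PPARGC1A* with *PPARD* had r = 0.104 (permutation p = 0.723) and *PPARD* with *PDK4* had 0.484 (permutation p = 0.0813). *PPARGC1A* with *CPT1B* had r = -0.118 in batch 1, the only value below 0 among the 18. A difference of a relation between batches was called for 0% of probes with *PPARGC1A*, 0.0184% with *PPARD*, 0% with *PDK4* and 3.21% with *CPT1B*. No pair of members was among them (lowest adjusted p = 0.299), and unadjusted p under 0.05 was reached by 416 probes with *PPARGC1A* and 199 with *PDK4*. *PPARD* was among the 416 (limma, unadjusted p = 0.0303). With so few pigs in batches 1 and 3, a p that misses the threshold does not show that the relations were alike.

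The relations of the members were also set against the main axes of variation of all probes. The first 2 principal components of the residuals held 18.0% and 11.5% of the variance. The r with the first component was, in size, 0.133 for *PPARGC1A*, 0.426 for *PPARD*, 0.0996 for *PDK4* and 0.425 for *CPT1B*. The r with the second component was, in size, 0.677 for *PPARGC1A*, 0.563 for *PPARD*, 0.735 for *PDK4* and 0.434 for *CPT1B*. With both components as further effects, *PPARGC1A* with *PPARD* kept its call (r = 0.370, limma, adjusted p = 0.00729). *PPARGC1A* with *PDK4* fell to r = 0.0267, *PPARD* with *PDK4* to 0.0575 and *PDK4* with *CPT1B* to 0.156, and none was called. *PPARD* with *CPT1B* turned to -0.257 and *PPARGC1A* with *CPT1B* to -0.174, again without a call. What these components stand for was not tested.

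**Figure D4:**
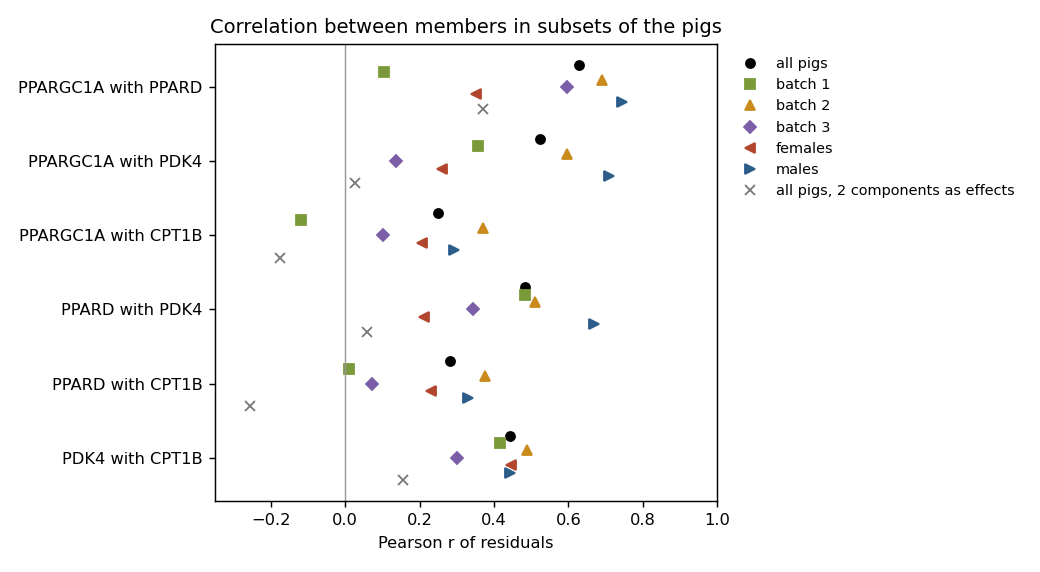
Pearson r of residuals (horizontal axis) for the 6 pairs of genes in all pigs, in each slaughter batch, in each sex, and in all pigs with 2 principal components as further effects. For *PPARGC1A* with *PDK4* the value is 0.524 in all pigs, 0.709 in males, 0.260 in females and 0.0267 with the components.

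The genes whose pattern was most like that of *PPARGC1A* are named by the residual r over 102 pigs, as the 5 highest and 5 lowest among genes with a symbol. Probes without a symbol could not be named and may lie nearer. *NR4A3*, an orphan nuclear receptor induced by exercise and cyclic AMP, led with r = 0.863, and r was 0.875, 0.880 and 0.747 in batches 1, 2 and 3. *PRKAG2*, a regulatory subunit of AMP-activated kinase, had r = 0.844. *SLC25A5*, a mitochondrial carrier of ADP and ATP, had r = 0.795. *DDIT3*, a transcription factor of the stress response, and *VEGFA*, the growth factor of blood vessels, had r = 0.782 and 0.752. Second probes of *NR4A3* and *VEGFA* had r = 0.787 and 0.679. *NR4A3* and *PRKAG2* were, like *PPARGC1A*, lower in females, with differences of -2.20 and -1.12. Against *PPARGC1A* went *SIX4*, a homeobox factor of muscle (r = -0.762), *TBCC*, *MEIS1*, *OGT* and *ACSL3*, the last at r = -0.562. In batch 1, *MEIS1* and *ACSL3* had r of only -0.0152 and -0.0927 with it. *SIX4* and *OGT* are each read by more than 1 probe. The second *SIX4* probe had r = -0.748, while the other 2 probes of *OGT* had r = -0.231 and -0.231, against -0.589 for the one used.

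*PPARD* shared part of these neighbours. *UBE4B*, a ubiquitin ligase, had the highest r (0.672), before *TMEM251*, *RASGEF1B*, *PUS1* and *LONRF3* (0.651 to 0.662). *BMPR1A*, a receptor of bone morphogenetic proteins, had the lowest (-0.701), and *SIX4*, *MEIS1* and *ACSL3*, named above, came next with *TMPO* (-0.675 to -0.592). *PDK4* went with *GADD45A*, a gene of growth arrest (r = 0.649), *RETREG1*, a receptor of autophagy at the endoplasmic reticulum (0.647), *PRKAG2* (0.647), *ARPC1A* and *SLC25A33*. Against *PDK4* went *SYNE2* (-0.658), *MEIS1*, *PPP1R3B*, which targets a phosphatase to glycogen (-0.587), *SIX4* and *BMPR1A*. *RETREG1* had r = 0.785 and 0.699 with *PDK4* in batches 1 and 2, and -0.0517 in batch 3. The other genes named for *PDK4* also had a weaker r in batch 3 than over all pigs. It ran from 0.0629 (*SLC25A33*) to 0.375 (*PRKAG2*) and from -0.126 (*MEIS1*) to -0.361 (*SYNE2*). With *PPARGC1A*, *RETREG1* had r = 0.678 over all pigs.

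The genes named as nearest to *CPT1B* were not among those named for the other members, though some genes moved with both. *VEGFA*, named above for *PPARGC1A*, had r = 0.542 with *CPT1B*. *ACADVL*, the dehydrogenase of very long-chain acyl-CoA that acts just after the carnitine shuttle, had r = 0.846, and 0.925, 0.830 and 0.810 in batches 1, 2 and 3. Its second probe had r = 0.576. *WDR45*, a gene of autophagy, had r = 0.769, and it had 0.537 with *PPARD* and 0.523 with *PDK4*. *TUFM*, the mitochondrial elongation factor, had r = 0.756, and *NDUFS7*, a subunit of complex I, had 0.726, followed by *ILVBL*. *VKORC1L1* had the lowest r (-0.767). *MSTN*, the gene of myostatin, an inhibitor of muscle growth, had r = -0.652, and its 2 probes gave -0.661 and -0.652. *UBE2E3*, *ASNS* and *MAD2L1* followed with -0.612 to -0.583. In a model with *PPARGC1A* and *CPT1B* together, added after these values were seen, *ACADVL* had slopes of 0.44 ± 0.03 per SD of *CPT1B* and 0.0126 ± 0.03 per SD of *PPARGC1A* (SE). *NR4A3* had slopes of 2.13 ± 0.13 on *PPARGC1A* and -0.14 ± 0.13 on *CPT1B* (SE). Both genes were chosen for their nearness to one member, so a difference between their slopes was built in by the choice and is only a description. In that model 22.1% of probes were called for *PPARGC1A*, 41.6% for *CPT1B* and 27.4% for the difference of the slopes.

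Genes of beta oxidation moved mainly with *CPT1B*. Of 27 genes listed for mitochondrial and peroxisomal beta oxidation, 12 had a probe, and 11 of them rose with *CPT1B* against 2 with *PPARGC1A*, 3 with *PPARD* and 4 with *PDK4*. The shares of all probes that rose with them were 28.5%, 14.3%, 22.1% and 16.6% in that order, and the counts of this and the following lists stand against these shares. The counts with *PPARGC1A* and *PPARD* are near them. The median r of the 12 genes was 0.457 with *CPT1B*, where that of all probes was 0.0592, and 0.0581 with *PPARGC1A* (all probes, -0.0126). *ETFDH*, which passes electrons from fatty acid oxidation to ubiquinone, had r = 0.676 with *CPT1B*, *ECI2* had 0.668 and *ECI1* had 0.646, the last 2 being isomerases of unsaturated fatty acids. The difference between the slopes on *CPT1B* and on *PPARGC1A* was called for 11 of the 12, larger on *CPT1B* each time (27.4% of all probes were called in either direction). *ACADVL*, named above for its nearness to *CPT1B*, is among the 11. *HADHB*, the thiolase subunit of the trifunctional protein, had r = 0.440 with *CPT1B* and 0.294 with *PPARGC1A*, both called, and no called difference. *ECHS1*, the enoyl-CoA hydratase, rose with *CPT1B* (r = 0.335) and fell with *PDK4* (r = -0.299).

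Of 68 genes listed for the citrate cycle and electron transport, 10 had a probe. Of these, 7 rose with *CPT1B*, 1 with *PPARGC1A*, 3 with *PPARD* and 1 with *PDK4*. *SDHA*, a subunit of succinate dehydrogenase, had r = 0.686 with *CPT1B*, *CS*, the citrate synthase, had 0.657 and *NDUFA10* had 0.645. For these 3 genes r with *PPARGC1A* was 0.071, 0.135 and 0.0335, and none was called. *MDH1*, a malate dehydrogenase, was the gene that rose with *PPARGC1A* (r = 0.305). *NDUFS3*, a subunit of complex I, fell with *PPARD* (r = -0.524) and with *PDK4* (r = -0.263).

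Markers of slow oxidative fibres also went with *CPT1B*. All 9 with a probe, of 14 listed, rose with *CPT1B*, 6 rose with *PDK4* and 0 rose with *PPARGC1A* or *PPARD*. *TNNI1*, the slow troponin I, had r = 0.615 with *CPT1B*, *LDHB*, the heart form of lactate dehydrogenase, had 0.606, and *MYL3*, a slow myosin light chain, had 0.598. With *PPARGC1A* the 9 genes had r between 0.0279 and 0.209. None of the 3 measured genes of fast fibres, *ATP2A1*, *GPD1* and *PYGM*, was called with *CPT1B*, and *GPD1* fell with *PDK4* (r = -0.305). In batch 3 against batch 2, 5 of the 9 slow fibre genes were higher and 1 was lower, while *CPT1B* was lower. Among all probes 36.2% were higher in batch 3 than in batch 2. Genes of endothelial cells moved with *CPT1B* too, with 5 of 6 called, among them *ESAM* (r = 0.573). The mean of the 6 endothelial genes had r = 0.537 with *CPT1B* and 0.137 with *PPARGC1A*. The mean of the 6 general muscle markers had r = 0.579 with *CPT1B*, 0.356 with *PPARD*, 0.237 with *PDK4* and 0.0791 with *PPARGC1A*. This mean ranged from 10.07 to 11.82 in females and from 10.07 to 12.48 in males. Of the adipocyte list, 6 genes had a probe, and 3 of them rose with *CPT1B* and 1 with *PPARGC1A*. With *PDK4*, 3 rose and 2 fell, and with *PPARD* 2 fell. Among all probes, 13.5% fell with *PDK4* and 20.6% with *PPARD*. The mean of the 6 adipocyte genes had r = 0.346 with *CPT1B*, 0.0197 with *PDK4*, -0.0208 with *PPARGC1A* and -0.0772 with *PPARD*. Of 7 measured fibroblast genes, 4 fell with *PPARD* (20.6% of all probes did), among them *FBN1* (r = -0.377). With *CPT1B*, 2 of the 7 fell (16.3% of all probes did). The mean of the 7 had r = -0.296 with *PPARD* and -0.107 with *CPT1B*. Of 5 measured macrophage genes, 2 rose with *PPARGC1A*, 2 with *PDK4*, 2 with *CPT1B* and 1 with *PPARD*. *CD163* was among those that rose with *PPARGC1A* (r = 0.438). The mean of the 5 had r = 0.227 with *PPARGC1A*, 0.204 with *PDK4*, 0.237 with *CPT1B* and 0.118 with *PPARD*. None of the 6 genes listed for red blood cells had a named probe among the deposited values. The part of cell or fibre make-up in the relations of the 4 members was not tested.

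**Figure D5:**
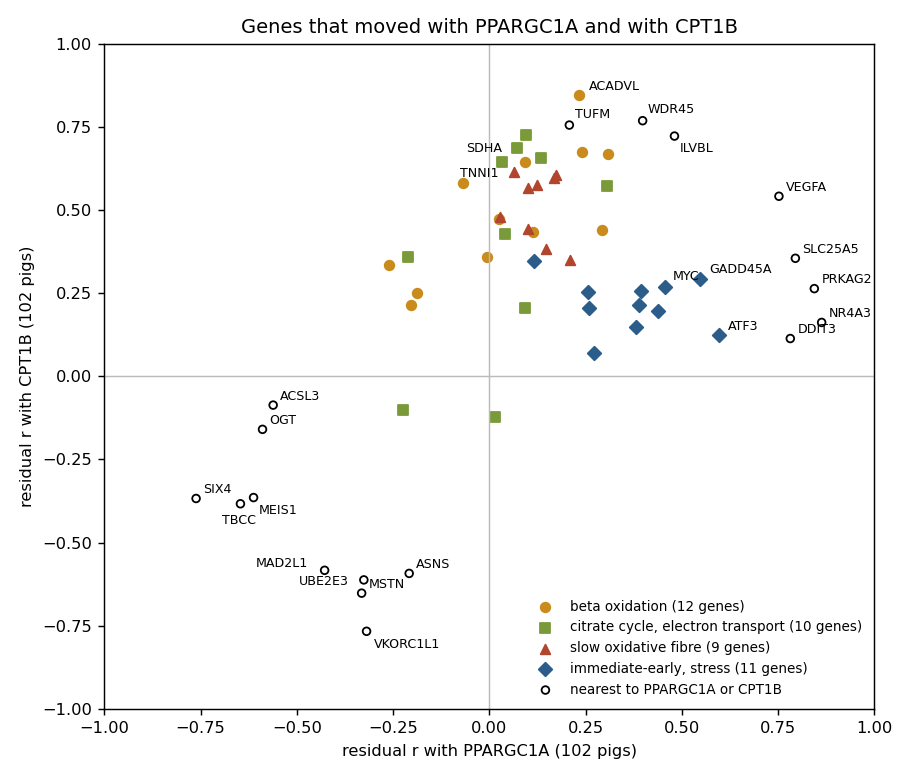
Residual r with *PPARGC1A* (horizontal axis) and with *CPT1B* (vertical axis) over 102 pigs for genes of 4 lists and for the genes nearest to either member. Beta oxidation, citrate cycle and slow fibre genes lie mostly high near the vertical axis (11 of 12, 7 of 10 and 9 of 9 called with *CPT1B*), and immediate-early and stress genes lie to the right of it (10 of 11 called with *PPARGC1A*).

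*PPARGC1A* went with immediate-early and stress genes. Of 11 measured, 10 rose with *PPARGC1A*, 9 with *PPARD*, 7 with *PDK4* and 5 with *CPT1B*. *ATF3*, a stress-induced transcription factor, had r = 0.597 with *PPARGC1A*, *GADD45A* had 0.548, *MYC* had 0.458 and *HSPH1*, a chaperone, had 0.439. *HSPB1* was the exception at r = 0.117. The median r of the list was 0.390 with *PPARGC1A* and 0.214 with *CPT1B*, and a difference between these slopes was called for 2 of the 11. Of the same 11 genes, 3 were lower in females, against 14.4% of all probes, with *ATF3* at -1.06. In 55 females alone, 0 of the 11 were called with *PPARGC1A*, and with 2 principal components as effects the count was also 0.

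Of 44 genes listed as partners and upstream factors of the regulators, 14 had a probe. *CREM*, *FOXO1*, *LPIN1*, *NR4A3* and *PRKAG2* rose with *PPARGC1A*, with *PPARD* and with *PDK4* alike. Besides *NR4A3* and *PRKAG2*, *CREM*, a factor of the cyclic AMP response, had r = 0.655 with *PPARGC1A*, and *FOXO1*, which drives fasting genes such as *PDK4*, had 0.436. *FOXO1* had r = 0.510 with *PDK4* and 0.504 with *PPARD*. *LPIN1*, a coregulator of fatty acid oxidation, had r = 0.549 with *PPARD*. With *PPARD*, *RXRB* and *STK11* rose as well (r = 0.297 and 0.304), and 4 genes of the list rose with *CPT1B*. *PRKAG3*, the kinase subunit of glycolytic muscle, fell with *PPARGC1A* (r = -0.275) and with *PDK4* (r = -0.328). *TFAM*, the mitochondrial transcription factor, had r = 0.00512 with *PPARGC1A*.

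PPAR targets of fatty acid uptake and storage were spread over the 4 members. Of 10 measured, 5 rose with *PPARGC1A*, 3 with *PPARD*, 6 with *PDK4* and 6 with *CPT1B*. *FABP3*, the fatty acid binding protein of muscle, rose with *CPT1B* (r = 0.608), *PDK4* (0.515) and *PPARGC1A* (0.402). *LPL*, which frees fatty acids from lipoproteins, rose with the same 3 (r = 0.470, 0.403 and 0.349). *UCP3*, a mitochondrial carrier that fasting induces, rose with *PPARD* (0.441), *PPARGC1A* (0.412) and *PDK4* (0.285), and had r = 0.171 with *CPT1B*. *ACSL3*, an acyl-CoA synthetase, fell with *PPARGC1A*, *PPARD* and *PDK4* (-0.562, -0.601 and -0.424). *PNPLA2*, the triglyceride lipase, had r = 0.445 with *CPT1B*, the one of its 4 relations that was called.

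Other fuel genes followed similar lines. *PDHA1*, a subunit of the complex that *PDK4* inhibits, rose with *PDK4* (r = 0.393), *CPT1B* (0.616) and *PPARGC1A* (0.342). *PDK3*, another kinase of that complex, fell with *CPT1B* (r = -0.466). *CRAT*, the measured gene of the carnitine shuttle besides *CPT1B*, rose with *CPT1B* (r = 0.342). In the list of glucocorticoid and fasting genes, 5 of 10 rose with *PDK4*, 4 with *PPARD*, 4 with *CPT1B* and 1 with *PPARGC1A*. That 1 was *KLF15*, which had r = 0.540 with *PPARGC1A*, 0.603 with *PPARD*, 0.496 with *PDK4* and 0.396 with *CPT1B*. *CEBPD* had r = 0.474 with *PDK4*, and *TSC22D3*, a direct target of the glucocorticoid receptor, had r = 0.391 with *PDK4* and 0.0402 with *PPARGC1A*.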

How the data were processed

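Muscle RNA of 102 pigs was hybridised to Affymetrix porcine arrays, 1 per pig. The authors read the scans with GCOS and checked them with AffyPLM. They deposited log2 values normalized by GCRMA in BRB-ArrayTools, after a filter on probes with little variation. No source used here gives the GCRMA version. Of 5493 probes, 44 controls were left out and 5449 tested. The platform annotation gave 1 gene symbol for 2639 probes, several for 49 and none for 2761, and 2619 matched RefSeq genes.

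Sex and batch came from the labels. Each probe was fitted with limma 3.58.1 (R 4.3.3) on sex, slaughter batch and carcass weight, and p-values were adjusted over all probes (Benjamini-Hochberg, two-sided, threshold 0.05). Relations used residuals of this model, standardised for slopes. Permutation tests were two-sided with 100000 permutations. Scripts were tested on simulated data. The number of arrays limits the precision.

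The 4 genes and the gene lists were chosen with earlier results of these data known. Named genes are the 5 nearest in each direction to each of the 4, and up to 4 per list with the smallest p. Further genes named as exceptions or contrasts were chosen after their values were seen. Alternatives changed the normalization, covariates, weights, probes and pigs.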

Additional observations from a re-analysis of the deposited data

Results flagged for a closer look

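*CPT1B* of 1 male in batch 1 (replicate 2) was 9.27, while the next of the 6 males of that batch was at 8.14. The gap was 0.669 of the range of the group. Such gaps were looked for in 12 sets of values, the 4 genes in each of the 3 groups of 4 to 10 pigs. Of these, 1 had one, and chance gives about 1 in 20.

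The slope of *PPARGC1A* on *PDK4* differed between the sexes by -0.82 per SD of *PDK4*, females minus males (limma, adjusted p = 0.0183). That of *PPARD* on *PDK4* differed by -0.33 (limma, adjusted p = 0.0298).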

How the results depend on the processing

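Differences between the sexes kept direction and call for all 4 genes in all 12 alternatives, with ranges of -1.59 to -1.34 for *PPARGC1A*, -0.69 to -0.50 for *PPARD*, -0.76 to -0.46 for *PDK4* and -0.55 to -0.36 for *CPT1B*. Among the 12, the alternative that left out arrays by their sex-separating probes is no independent check. No paired analysis was possible because the replicate numbers only name pigs and the labels pair none. Another probe could not be tried, as each gene has 1 named probe among the deposited values. The cause of the changes below was not tested.

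With quantile normalization, *PDK4* in batch 3 minus batch 2 turned to 0.23, r fell to 0.182 for *PPARGC1A* with *CPT1B* and to 0.1996 for *PPARD* with *CPT1B*, and *PDK4* on *PPARD* in the joint fit had 0.11. Genes that rose with *PPARGC1A* became 1 in beta oxidation and 0 in the citrate cycle, and immediate-early genes with *CPT1B* became 2. The sex differences of the slopes on *PDK4* were -0.75 for *PPARGC1A* and -0.34 for *PPARD*, neither called. With age, *PPARGC1A* in batch 1 minus batch 2 turned to -0.46, *PPARD* in batch 3 minus batch 1 turned to -0.0176, r of *PPARGC1A* with *CPT1B* was 0.241, and *PDK4* on *PPARD* was 0.17.

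With the first 2 principal components, *PDK4* in batch 1 minus batch 2 (-0.33) and *PPARGC1A* in batch 3 minus batch 1 (-1.18) were called. These components hold part of the members' own variation, as stated above. Probes that moved with *PPARGC1A*, *PPARD*, *PDK4* and *CPT1B* numbered 412, 175, 16 and 1393. Values of r were 0.0267 for *PPARGC1A* with *PDK4*, -0.174 for *PPARGC1A* with *CPT1B*, 0.0575 for *PPARD* with *PDK4*, -0.257 for *PPARD* with *CPT1B* and 0.156 for *PDK4* with *CPT1B*. Genes that rose with *PPARGC1A* became 0 in beta oxidation, citrate cycle and immediate-early genes, and immediate-early genes with *CPT1B* became 0. Joint slopes were 0.00286 and 0.025 for *PDK4* and -0.0392 and -0.10 for *CPT1B*, on *PPARGC1A* and *PPARD*. Slope differences between the sexes were -0.38 and -0.0319.

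In females alone, 155, 593 and 199 probes moved with *PPARGC1A*, *PPARD* and *PDK4*. Values of r, refitted in females, were 0.314 for *PPARGC1A* with *PPARD*, 0.298 for *PPARGC1A* with *PDK4*, 0.211 for *PPARGC1A* with *CPT1B*, 0.266 for *PPARD* with *PDK4* and 0.240 for *PPARD* with *CPT1B*. None was called. Genes that rose with *PPARGC1A* became 0 in beta oxidation, citrate cycle and immediate-early genes, and the joint slopes of *PDK4* were 0.15 and 0.12. In males alone, 1488 probes moved with *PPARD* and 894 with *CPT1B*, r was 0.292 for *PPARGC1A* with *CPT1B* and 0.330 for *PPARD* with *CPT1B*, beta oxidation and citrate cycle genes that rose with *PPARGC1A* became 1 and 0, immediate-early genes with *CPT1B* became 0, and the joint slopes of *PDK4* were 0.33 and 0.26. In batch 2 alone, 4 beta oxidation genes rose with *PPARGC1A*, and *PDK4* on *PPARD* was 0.12.

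With array weights, *PPARGC1A* in batch 3 minus batch 1 was called (-1.31), and *PDK4* on *PPARD* lost its call (0.15). It also lost it without the 4 arrays with a sex-separating probe against the label (0.17). *PPARGC1A* with *CPT1B* lost its call with the spike-in mean (r = 0.250), without the 2 farthest pigs (0.218) and, in an alternative chosen after seeing the data, without batch 3 replicate 15 (0.244). For weight, the number of probes called was 1 with the spike-in mean, 258 with components, 126 with array weights, 1 without the 4 arrays, 1 with batch as a random block, 2 without batch 3 replicate 15 and 3412 with no other covariates. In that last fit *CPT1B* was called (0.32 per 10 kg) and *PPARD* turned to 0.0863. The slope of *PDK4* on weight, near 0, turned to -0.00504 with quantile normalization, -0.00439 with spike-ins, -0.00868 with array weights, -0.0012 without the 4 arrays and -0.0319 in batch 2.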
